A study of Arabidopsis thaliana with 4 samples.

Results

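The peaks described here are those called in the precipitate of ANAC060-GFP from seedlings grown without glucose, with input DNA of the same treatment as the control. All peaks of that list on the 5 nuclear chromosomes were taken. This gave 4155 of the 7014 peaks that both lists of the series hold on these chromosomes. Chromatin came from 10-d-old Arabidopsis thaliana seedlings that carry 35S:ANAC060-GFP and lack native ANAC060 function (anac060 mutant), grown in constant light at 22 °C after 3 d of stratification, and was precipitated with an anti-GFP antibody. The input came from wild-type Col-0 seedlings without glucose and was taken without antibody. The header of the list does not say plainly which library was its control, and the input of the same treatment is taken to be it. The series holds 4 libraries, 1 precipitate and 1 input for each treatment, so the list rests on 1 library a side and no value below has a replicate check.

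The precipitate and its control differed in genotype as well as in precipitation, and effects of these differences on the list cannot be told apart. A precipitate of plants without the tag was not used here. The 35S promoter is constitutive, so the fusion can be present in cells that do not make the native protein. Read counts were not used here, and the depth of both libraries is unknown.

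ANAC060 belongs to the NAC family, plant-specific transcription factors that share an N-terminal DNA-binding domain. It has been linked to the response of seedlings to sugar, which acts in part through abscisic acid (ABA). In the core ABA pathway the PYR/PYL receptors bind the hormone and inhibit clade A protein phosphatases 2C (PP2C), which frees SnRK2 kinases to phosphorylate bZIP factors such as ABI5. A peak is called where precipitated DNA exceeds the control, and says nothing of whether a neighbouring gene responds.

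The 4155 peaks covered 9.02 Mb of the TAIR10 genome. Their median width was 1784 bp, and 10% were narrower than 1394 bp and 10% wider than 3279 bp. The score of a peak is the authors' own value, taken here as higher for stronger calls, and served to describe, order and filter the peaks of this list alone. It ran from 100.01 to 3100 with a median of 180. A score of 200 or more was given to 1764 peaks (42.5%), of 500 or more to 345 (8.30%) and of 1000 or more to 72 (1.73%). The list therefore had many peaks of low score and a short tail of high ones. Peak numbers ran up to 7292, of which the listed peaks make 57.0%.

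A set of 51 peaks was kept apart. Of these, 40 lay in 1 Mb windows with under 100 protein-coding genes and 11 on chromosome 2 between 3 and 4 Mb, where mitochondrial DNA is known to be inserted. They included the widest peak, 90084 bp, and all but 3 of the 14 peaks at the highest score. The other 4104 peaks are used for the lists of the highest and widest peaks, whereas printed ranks, quintiles and class values use all 4155.

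Score and width went together among these 4104 peaks, with a Spearman correlation of 0.73 across peaks of 1 library, given as a description. A width of 5 kb or more was found for 87 of them, with a median score of 978 and a lowest score of 480, against a median of 176 for the rest. The 54 peaks of score 1000 or more had a median width of 5952 bp, and 8 of them were under 3 kb. The highest peaks were thus mostly broad regions, beside a few narrow ones.

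**Figure D1:**
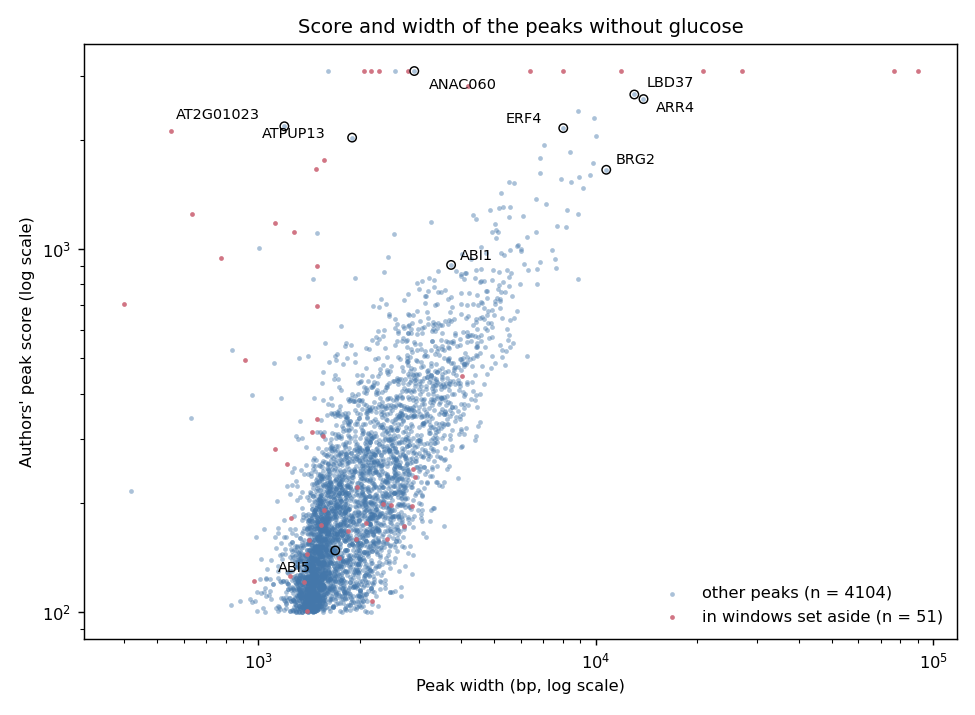
Authors' score against width of each of the 4155 peaks, both on log scales, with 51 peaks in the windows set aside in red. Width rises with score for most peaks, while the peaks named for ANAC060, AT2G01023 and ATPUP13 stand at high scores with widths of 2898, 1194 and 1896 bp.

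The number of peaks followed the number of genes from chromosome to chromosome, but less closely along each of them. There were 1098 peaks on chromosome 1, 639 on chromosome 2, 822 on chromosome 3, 629 on chromosome 4 and 967 on chromosome 5. Per 100 protein-coding genes this came to between 14.8 and 15.3 on each chromosome. The 106 windows of 1 Mb with at least 100 genes held 3 to 96 peaks, with a median of 37, and the 15 gene-poor windows held a median of 2 and at most 6. Peaks per gene varied between windows, with 3 peaks for 108 genes in a window of chromosome 1 and 96 for 284 genes in a window of chromosome 5. The median space from the end of one peak to the start of the next was 11572.5 bp.

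Relative to protein-coding genes, 2159 centres (52.0%, exact 95% interval 50.4 to 53.5, for counting error only) lay outside every gene but within 1 kb of one. A further 1594 (38.4%, 36.9 to 39.9) lay inside a gene. Another annotated gene, such as one for a tRNA or a pseudogene, held 44 (1.06%). The remaining 358 (8.62%) lay elsewhere, with a median score of 229 against 168 in gene bodies and 183 in flanks. Centres elsewhere were therefore few, and their median score was not the lowest. They lay over 1 kb from a protein-coding gene, but a broad peak can still reach one. Among all peaks 170 touched no 1 kb flank of such a gene. The median width elsewhere was 2177 bp, against 1670 bp in gene bodies and 1826 bp in flanks. The part of width in the scores was not tested.

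Centres gathered at gene ends on both sides of the boundary. Their density was 119 per Mb in the first 250 bp outside a gene and 65.7 per Mb in the first 250 bp inside it, where the whole genome had 34.9 per Mb. It fell to 4.04 per Mb beyond 3 kb outside and to 2.18 per Mb beyond 2 kb inside. Of the centres inside genes, 64.2% lay within 300 bp of an end and 70.2% in the outermost 20% of its length at either end. The median centre outside genes was 308 bp from the nearest gene end. The annotation used gives no strand, so the start and the end of transcription cannot be told apart.

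Outside genes, strong peaks were centred farther from gene ends than weak ones. In the highest quintile of scores the density was greatest from 250 to 500 bp outside genes, at 20.04 per Mb, against 11.7 in the first 250 bp. In the lowest quintile it was greatest in those first 250 bp, at 32.3 per Mb. Inside genes the first 250 bp held 7.16 per Mb in the highest quintile and 17.6 in the lowest. From 250 to 500 bp inside, the values were 6.34 and 4.31. The highest quintile stayed the denser one to 1500 bp inside, and the lowest was denser beyond. Width differs between these quintiles, with medians of 3096 and 1449 bp, and the part of width in the shift was not tested.

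**Figure D2:**
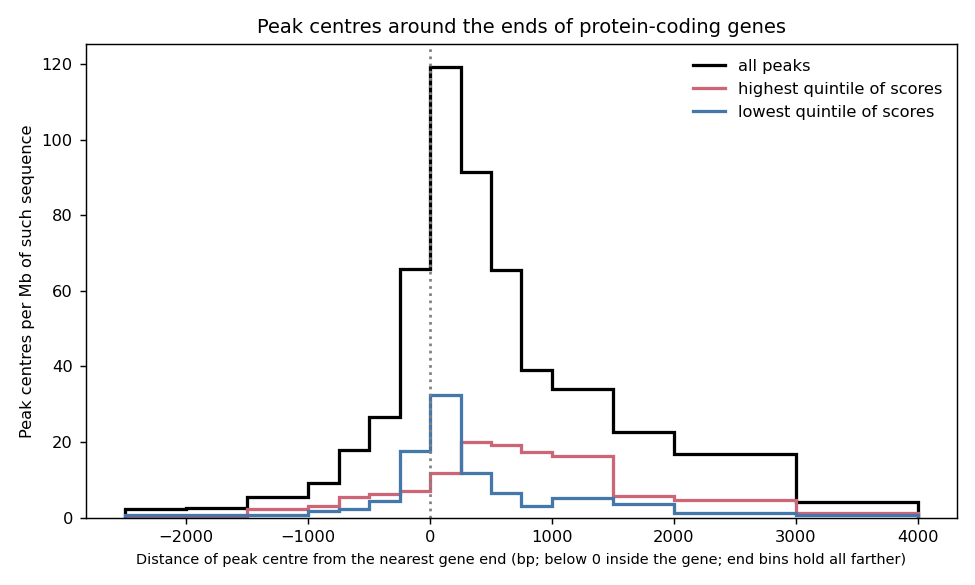
Density of peak centres, in centres per Mb of sequence at that distance, against the distance from the nearest end of a protein-coding gene in bp, negative inside genes. The curve of all peaks is highest just outside gene ends, at 119 per Mb. That of the highest quintile is broader, with its maximum farther outside the gene.

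The space between genes had its own gradient. In gaps of up to 500 bp 4.39% held a peak centre, and in gaps of 5 to 10 kb 18.6% did, while in gaps over 10 kb it was 11.5%. Per Mb the order was the reverse, from 221 centres in the shortest gaps to 5.27 in gaps over 10 kb. The median gap was 877 bp, and the median gap that held a centre was 1769.5 bp. The share of gaps with a centre thus rose with length up to 10 kb and was lower beyond, while the density fell throughout.

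Across quintiles of score, from lowest to highest, the share of centres inside genes went from 43.0% to 34.4%, and the share elsewhere from 6.02% to 15.6%. The nearest gene within 1 kb belonged to one of 18 transcription factor classes in 2.84% of cases in the lowest quintile, 5.07% in the middle one and 7.33% in the highest. These classes make 3.10% of all protein-coding genes. Their share was higher in each quintile than in the one before it. The last step came from the number of peaks with a gene within 1 kb. There were 50 peaks nearest to such a factor gene both in quintile 4, of 762, and in quintile 5, of 682.

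**Figure D3:**
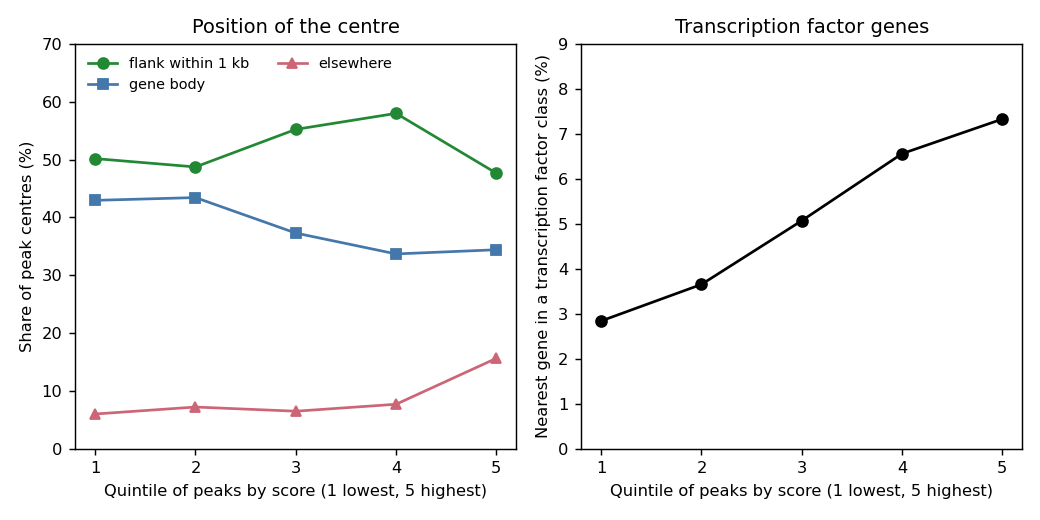
Quintiles of the 4155 peaks by score, lowest to highest, with the share of centres in gene bodies, flanks and elsewhere (left, %) and the share whose nearest gene is in a transcription factor class (right, %). The gene-body share falls from 43.0% to 34.4%. The transcription factor share, among peaks with a gene within 1 kb, rises from 2.84% to 7.33%.

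A gene was counted as having a peak when a peak touched the 1 kb on either side of it. This held for 6940 of 27444 protein-coding genes, the 25.3% against which the gene classes below are read. The median of their highest scores was 193. A single peak was counted for 6191 of these genes, 739 had 2 peaks and 10 had 3. WRKY6, a senescence and stress factor, was among those with 3. Most peaks were shared between neighbours, since 1166 peaks touched the flank of 1 gene, 2118 of 2 genes, 589 of 3 genes and 112 of 4 or more, while 170 touched none. Genes that lay wholly within a peak numbered 694.

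Longer genes had a peak more often. In the shortest quartile of genes 18.5% had one and in the longest 29.3%. By the intergenic space beside the gene the shares were 24.4%, 28.3%, 27.4% and 21.0% from the least to the most space. Class shares below were not adjusted for either.

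ANAC060 itself (AT3G44290, NAC060 in the annotation) had 1 peak (chromosome 3, 15972856 to 15975753) that scored 3100. It was 2898 bp wide, its centre lay in the gene 946 bp from an end, and it reached the flank of no other protein-coding gene. This is the highest score in the list, held by 14 peaks, and since scores stop there it may be a cap and not a measured maximum. The line carries a transgene with this sequence and the input plants do not, and its copies and the gene's own locus cannot be told apart in the list. The peak at ABI5 (AT2G36270), chromosome 2, 15206686 to 15208375, had a score of 147.81 and rank 2688, which is below the median of the list.

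Outside the windows set aside, 3 peaks had the highest score, those at ANAC060, at AT3G20362 and at a tRNA gene described below. Of the 25 highest with a protein-coding gene within 1 kb of the centre, 19 were 5 kb or wider, the median width was 6846 bp and the lowest score was 1152. The nearest gene was a member of a transcription factor class in 6, namely ANAC060, LBD37, ERF4, RAP2.4, HB16 and ZF2. The peak nearest to LBD37, a repressor of nitrate-responsive genes, spanned 13014 bp (chromosome 5, 26900318 to 26913331) and touched the flanks of 4 genes, among them NPY3. ERF4, an ethylene response factor with a repression motif, lay under a peak of 8012 bp (chromosome 3, 5118832 to 5126843) that also touched 2 neighbours. RAP2.4, known as WIND1 for its role in wound-induced dedifferentiation, lay under one of 10052 bp. The homeodomain gene HB16 had a score of 1599 and ZF2, the zinc-finger repressor AZF2, had 1298.

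Most of the other genes of these 25 were not in a class. AT5G49700, which encodes the AT-hook protein AHL17, had a score of 1784 and BRG2, a BOI-related gene, had 1656. LOG7, an enzyme that activates cytokinin, had 1522, under a peak shared with the peroxiredoxin gene 2-Cys Prx B. AT1G28280, listed as the VQ-motif substrate MVQ1 of MPK3 and MPK6, had 1243. The cell-wall invertase gene ATBFRUCT1, which splits sucrose outside the cell, had 1175. The genes AT4G32020, AT2G40095, AT5G60680, AT3G07350, AT1G32920, AT5G03510, AT2G25460, AT2G27310, AT5G66650, AT1G19190 and AT5G47050 had scores from 1152 (AT5G47050) to 2299 (AT4G32020). They carry no symbol in the annotation.

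Narrow peaks made 4 of the 25. Beside ANAC060 they were AT3G20362 (3100, 2548 bp), AT2G01023 (2183, 1194 bp) and the purine permease gene ATPUP13 (2032, 1896 bp). The ATPUP13 peak was centred 989 bp from that gene, did not reach it, and counts for the transcribed pseudogene AT4G08695 as well. AT2G01023 lies near the tip of chromosome 2, where the peak stood between 9555 and 10748 next to ribosomal RNA genes that also had peaks. The part of copy number in these scores was not tested.

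The 5 widest peaks outside the windows set aside were named for ARR4, LBD37, BRG2, RAP2.4 and AT4G32020. The ARR4 peak was the widest, at 13856 bp (chromosome 1, 3439946 to 3453801), and touched the flanks of 5 genes. Its centre lay 2513 bp from ARR4, a negative regulator of cytokinin signalling, and 2694 bp from ZFP5, so the same peak counts for both. Other high peaks centred over 1 kb from a gene were those nearest to NAC083, to AT5G65207 beside TGA1, and to AT5G61997 beside ARF2, with scores of 2404, 1934 and 1854.

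Gene classes were then read against the share of all genes. They were taken by name, so family members with no matching name are missing from a class. Of 60 classes defined by gene names, 46 had a share of members with a peak above 25.3% and 14 below, and in 12 classes it was 50% or more. Of these, 22 stayed above and 8 below under every one of 11 other ways of counting, and 30 changed side in at least 1. Grouped by kind, the shares were 40.4% for ubiquitin ligases and ubiquitin genes, 38.6% for hormone signalling, 38.1% for core cell functions, 33.2% for transcription factors and 32.2% for other signalling. Transport had 29.7%, metabolism 26.8%, photosynthesis 22.7% and the cell wall 17.6%. These are counts of 1 list with no test behind them.

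The kinds differed more when only high peaks were counted. A peak of score 500 or more on the flank was found for 807 genes, 2.94% of all. Among hormone signalling genes 8.47% had one (16 of 189) and among transcription factors 6.34% (54 of 852). Among core genes it was 0.917% (2 of 218), although 38.1% of them had a peak of any score. Core classes thus had many peaks with low scores, and regulatory classes had both.

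**Figure D4:**
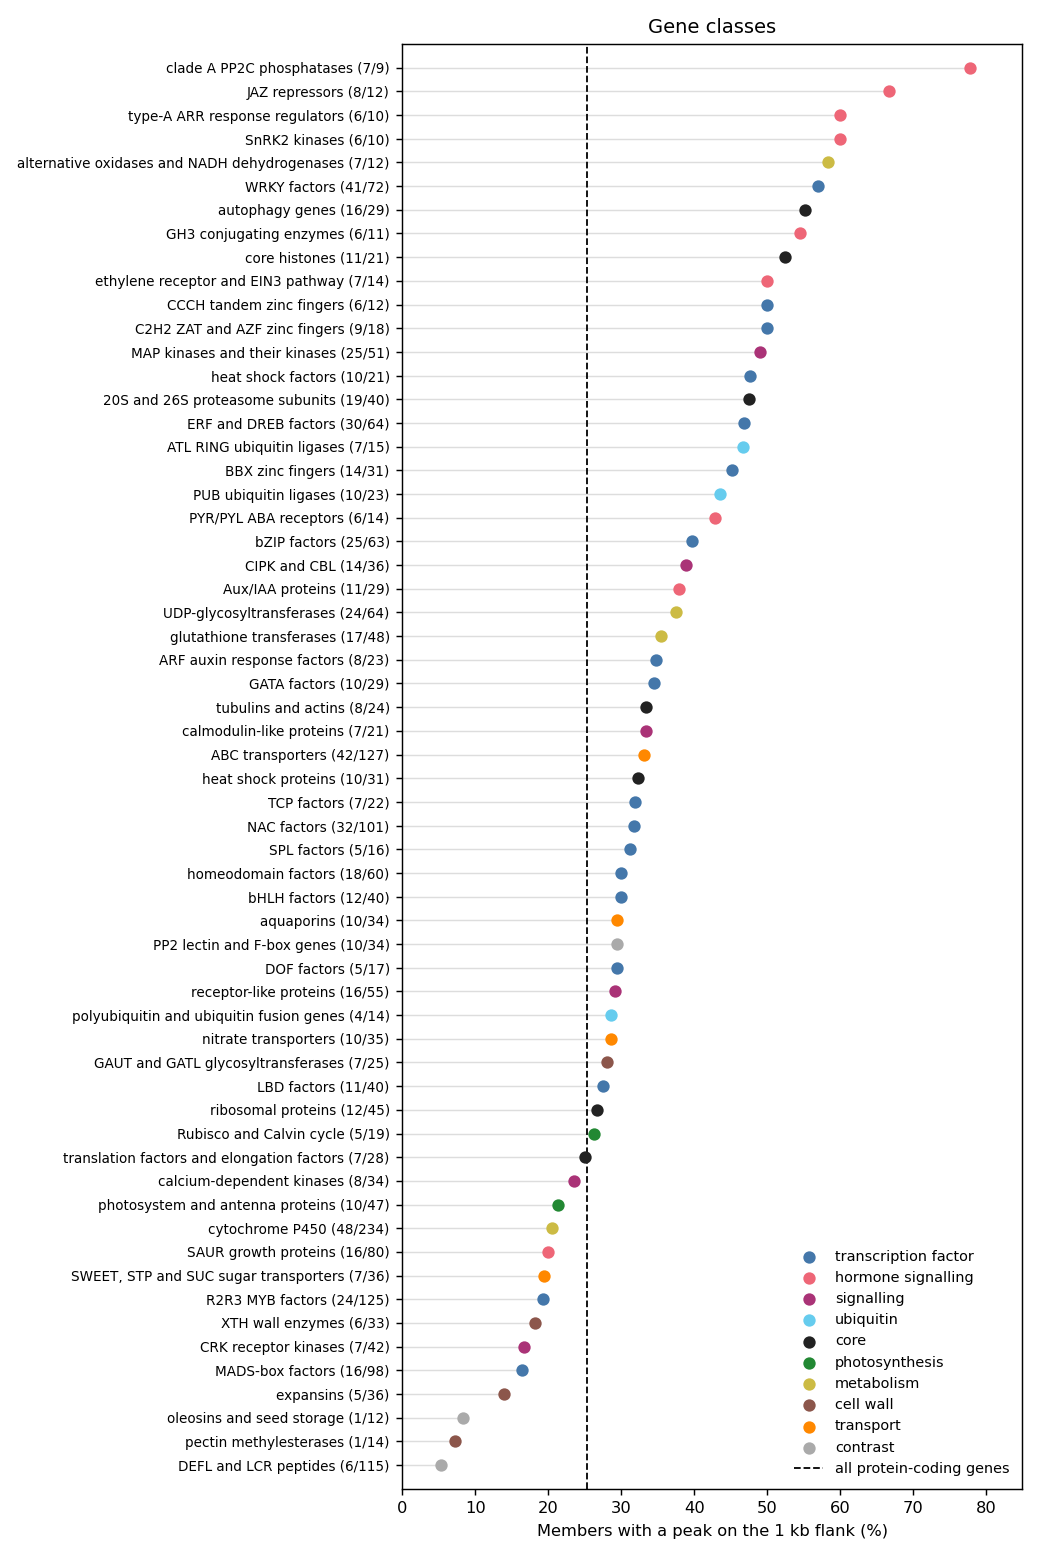
Share of members with a peak on the 1 kb flank (%) for each of 60 gene classes, with members with a peak and all members in brackets and the 25.3% of all protein-coding genes as a dashed line. Clade A PP2C phosphatases stand at 77.8% and DEFL and LCR peptides at 5.22%.

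ABA signalling genes had peaks at each step of the core pathway. Clade A PP2C phosphatases had the highest share of the 60 classes, 7 of 9 (77.8%), with a median score of 379. Their highest scores were 906 at ABI1 (chromosome 4, 13221420 to 13225145), 543 at PP2CA, 541 at HAI3 and 379 at ABI2. HAI1, HAB1 and HAB2 had scores of 168, 136 and 111, and HAI2 and AHG1 had no peak. The ABI1 peak also reached the flank of RPS2, a disease resistance gene, and its centre lay 906 bp from ABI1. For 6 of the 9 genes the class member was the nearest gene to a peak centre, against 13.2% of all genes.

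Of the PYR/PYL receptor genes 6 of 14 had a peak (42.9%). PYL4 (994), PYL5 (794) and PYR1 (379) were high, and PYL3, PYL13 and RCAR3 had 185, 163 and 152. By centres in the flank the receptor share was 7.14% against 14.2% of all genes, which turns the direction. That count leaves out centres inside the gene, as those at PYL5, PYR1, PYL3 and RCAR3 were. With only the nearest gene the receptor share was 35.7% against 13.2%. The SnRK2 kinases had 6 of 10 (60%), none at 500 or more. SNRK2.7 had 446, OST1, the kinase of stomatal closure, had 286 and SNRK2.3 had 267, while SNRK2.2 had no peak. At 267 the SNRK2.3 peak is the one that counts for its neighbour ASL1 as well. The median score was 282 for receptors and 230 for kinases, both below that of the phosphatases.

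Jasmonate and cytokinin regulators were also among the highest shares. JAZ repressors of jasmonate signalling had 8 of 12 (66.7%, median score 331). JAZ1 had 1255, through a peak of 8860 bp (chromosome 1, 6619557 to 6628416) that touched 6 genes and counts for ARF19 too, and TIFY10B, which is JAZ2, had 864 through a peak shared with ORA47. TIFY7 had 551 and JAZ3 347, and JAZ4, JAZ8, JAZ10 and JAZ11 had none. Type-A response regulators, which dampen cytokinin signalling, had 6 of 10 (60%, median 358), with RR5, ARR6 and ARR9 at 444, 387 and 329 below ARR4. By the same count of centres type-A regulators had 10.0%, also below all genes. The peaks at RR5, ARR6 and ARR9 were centred inside the gene.

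Of the ethylene receptor and EIN3 pathway genes 7 of 14 (50%) had a peak. The highest were EBF2 (623) and EBF1 (560), F-box genes whose products degrade EIN3, then CTR1 (327), the kinase that represses the pathway, and EIN2 (261). The CTR1 score is that of a peak centred inside its neighbour HSFA3, for which it counts as well. Among the receptors ERS2, EIN4 and ETR2 had 197, 147 and 129. EIN3, EIL1 and the receptors ETR1 and ERS1 had none. GH3 enzymes, which conjugate auxin or jasmonate to amino acids, had 6 of 11 (54.5%), with JAR1 at 421 and GH3.17 at 345. Aux/IAA repressors had 11 of 29 (37.9%), led by IAA9 (836), IAA2 (642) and IAA16 (576). SAUR growth genes, taken by symbol, had 16 of 80 (20%), below the share of all genes, although SAUR26 had 624. The locus AT5G01830, listed under the symbol SAUR21, had 729. It is in the class by that symbol, and its protein family was not checked. Auxin genes thus lay on both sides of the background.

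**Figure D5:**
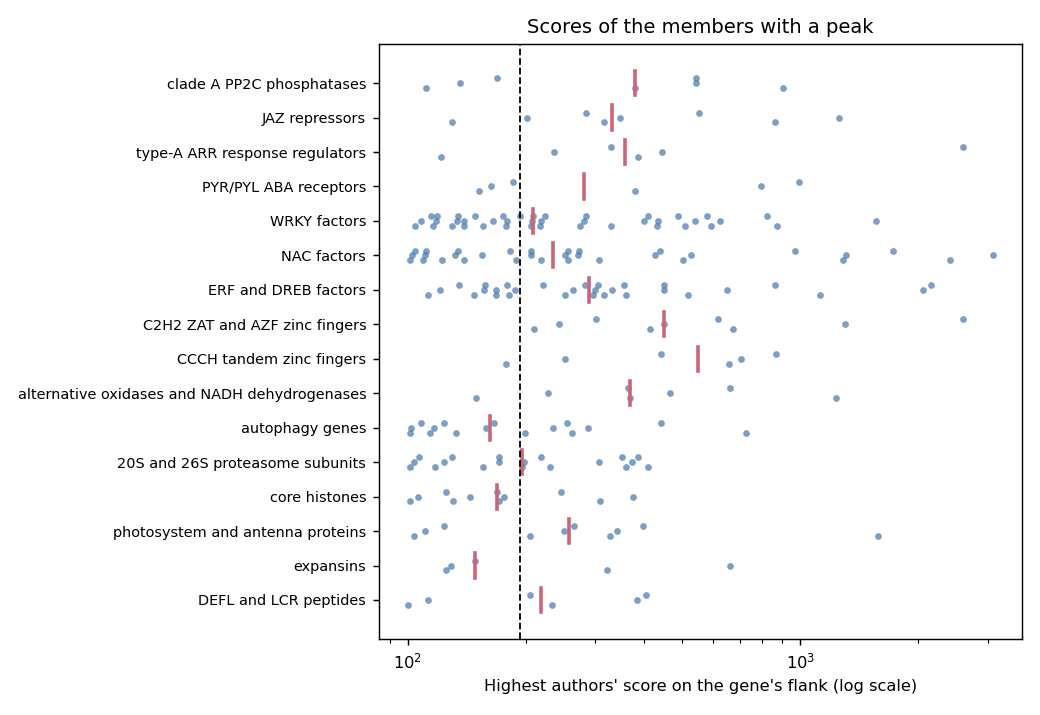
Highest authors' score on the flank of each class member with a peak (log scale) for 16 classes, with the class median as a red bar and the median of all genes with a peak, 193, as a dashed line. The CCCH class and the ZAT and AZF class, which also holds ZFP genes, have the highest medians shown, 549 and 449. Expansins have the lowest, 148.

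Transcription factor classes spread widely. Together 283 of 852 genes had a peak, with a median score of 235. Genes of these classes have more intergenic space beside them, a median of 3919 bp against 1799 bp for other genes. In the 4 quartiles of genes by that space, from least to most, the transcription factor share was 30.4%, 31.8%, 38.1% and 31.3%, where other genes had 24.4%, 28.3%, 27.0% and 20.3%. It was higher in each quartile, and the part of other gene features was not tested.

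WRKY factors, which bind W-box elements in defence and senescence genes, had the highest share among these, 41 of 72 (56.9%), with no peak shared between members, though several of these peaks also touch other genes. Their median score was 208, close to that of all genes with a peak. WRKY11 had 1560 (chromosome 4, 15289188 to 15297089), WRKY6 875, WRKY17 824 and WRKY36 622. WRKY11 and WRKY17 are close relatives with a role as negative regulators of basal resistance.

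ERF and DREB factors had 30 of 64 (46.9%, median 289). After ERF4 and RAP2.4 came ERF104 (1119) and ORA47 (864). The ERF104 peak is nearer to the wax repressor gene DEWAX, listed as AT5G61590, whose names do not place it in the class. The cold factors CBF2 and DREB1A shared 1 peak of 450. Heat shock factors had 10 of 21 (47.6%), with HSF4 at 589 and HSFB2A at 429, but 9.52% by centres in the flank, below the 14.2% of all genes. The peaks at HSF4, HSFB2A, HSFA3 and HSFA7A were centred inside the gene. BBX zinc fingers had 14 of 31 (45.2%), with BBX28 at 619, and bZIP factors 25 of 63 (39.7%). The highest bZIP score was 1934 at TGA1, a regulator of defence and nitrate responses, followed by AT2G12900 (947) in a peak of 776 bp in a gene-poor window. BZIP53 had 599 and BZIP24 558.

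The classes with the highest median scores were small. CCCH tandem zinc fingers had 6 of 12 (50%) with a median of 549, led by OXS2 (866), CZF1 (704) and SZF1 (657), genes of oxidative and salt stress responses. The class of ZAT and AZF zinc fingers had 9 of 18 (50%) with a median of 449. Many ZAT and AZF genes encode stress-induced repressors, but the class also holds ZFP5, ZFP6 and ZFP10, which carry another name. The median is the score of ZFP10. ZFP5 was counted through the ARR4 peak, and ZF2, ZF1 (674) and RHL41, which is ZAT12 (617), had peaks centred on or beside the gene. Only 5.56% of the genes of this class had a centre within the flank, against 14.2% of all genes. The peaks at ZF2 and ZF1 were centred inside the gene.

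NAC factors, the family of ANAC060, had 32 of 101 (31.7%), closer to the background, with a median of 235. Below ANAC060 they were led by NAC083 (2404), ANAC087 (1726) and NTL8 (1310). NTL8, a membrane-tethered NAC factor, shared its peak with AT2G27310, and the ANAC087 peak was centred 4069 bp from the gene. Of the 101 genes 8 had a score of 500 or more. The family thus had an ordinary share of genes with a peak and several very high scores.

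The remaining factor classes lay between 16.3% and 34.8%. ARF genes had 8 of 23 (34.8%) and GATA genes 10 of 29 (34.5%), TCP genes 7 of 22 (31.8%) and SPL genes 5 of 16 (31.2%). Bar the ARF genes, these fell below the share of all genes when counted by centres in the flank, and the ARF genes did with only the nearest gene. Homeodomain genes had 18 of 60 (30.0%), with HB16 followed by HB-7 (1132), HB-1 (922) and HB-12 (736), of which HB-7 and HB-12 respond to ABA and drought. By centres in the flank the homeodomain share was 10.0%, below that of all genes. LBD genes had 11 of 40 (27.5%), with LBD38 (988) after LBD37 and LBD39 at 252, all of the group of nitrogen-response repressors. The share of LBD genes fell below that of all genes without peaks of 5 kb or more. R2R3 MYB genes had 24 of 125 (19.2%), although MYBR1, which is MYB44, had 1533 and MYB77 had 507. The MYBR1 peak was centred 2039 bp from that gene, was nearest to AT5G67290 and counts for CYP81G1 too. MADS-box genes, many of them floral regulators, had 16 of 98 (16.3%), led by AGL28 (952), AGL67 (763) and SVP (627).

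Among signalling classes, MAP kinases and the kinases above them had 25 of 51 (49.0%), led by MAPKKK14 (1082), MAPKKK19 (838) and MAPKKK13 (777). The MAPKKK19 peak is nearest to the peptide gene RALFL34 and counts for HEC1 as well. CIPK kinases and their CBL calcium sensors had 14 of 36 (38.9%), with CBL1 at 592, and CIPK15 and its neighbour SR1 through 1 peak of 588. Calcium-dependent kinases had 8 of 34 (23.5%) and CRK receptor kinases 7 of 42 (16.7%). Both changed side in other counts. Calcium-dependent kinases had 41.2% against 30.9% of all genes with a 2 kb flank, and 20.6% against 13.2% with only the nearest gene. CRK genes had 14.29% against 14.20% by centres in the flank, and 14.29% against 13.93% with peaks above the median score. Ubiquitin ligases of the ATL class had 7 of 15 (46.7%) and of the PUB class 10 of 23 (43.5%), of which the ATL class fell to 13.3% against 14.2% by centres in the flank. ATL6 (719) and CNI1 (648), which is ATL31, act in the response to carbon and nitrogen supply.

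Core functions had high shares and low scores. Autophagy genes had 16 of 29 (55.2%) with a median of 162, and only ATG18B (727) and G18E (442) scored above 300. By centres in the flank the autophagy share was 13.8%, just under the 14.2% of all genes. Histone genes had 11 of 21 (52.4%, median 169) and proteasome subunits 19 of 40 (47.5%, median 195), with highest scores of 376 at HTA8 and 409 at PAG1. The PAG1 peak is nearest to the calmodulin gene CAM5. These genes lie close to their neighbours, and the median intergenic space was 845 bp beside proteasome genes and 790 bp beside histone genes, against 1856 bp for all genes. Ribosomal proteins (12 of 45, 26.7%) and translation factors (7 of 28, 25%) were at the background, with median scores of 172 and 257.

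Metabolic classes differed from each other. Alternative oxidases and type II NADH dehydrogenases, which bypass parts of the mitochondrial electron transport chain, had 7 of 12 (58.3%, median 368). AOX1A had 1231 through a peak centred 2118 bp away and nearest to the clock gene TIC, NDB1 had 660, NDA2 466 and AOX1C 368. A class member was the nearest gene to a peak centre for 2 of the 12. UDP-glycosyltransferases had 24 of 64 (37.5%) through 19 peaks and glutathione transferases 17 of 48 (35.4%) through 12, since these genes stand in tandem rows. GSTU1 and GSTU2, for one, were counted through the same peak of 629. Cytochromes P450 had 48 of 234 (20.5%), and CYP707A1, which breaks down ABA, had 449. With only the nearest gene the P450 share was 14.96%, above the 13.2% of all genes.

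Photosystem and antenna genes had 10 of 47 (21.3%), and 14.9% against 14.2% of all genes by centres in the flank. The highest was LHCB4.3 (1580), through a peak of 8898 bp nearest to AT2G40095, then LHCB4.1 (398) and PSAK (341). SWEET, STP and SUC sugar transporters had 7 of 36 (19.4%), with SWEET16 (379) and SUT4 (359) in front, and 13.9% against 13.2% of all genes with only the nearest gene. Wall-loosening genes were lower still, with 6 of 33 XTH genes (18.2%), 5 of 36 expansins (13.9%) and 1 of 14 pectin methylesterases (7.14%). The highest expansin, EXPB3 (660), was counted through the same peak as NDB1.

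The lowest share of the 60 classes was that of DEFL and LCR peptides, small defensin-like proteins, at 6 of 115 (5.22%), and in 1 case the member was the nearest gene. Their highest scores were 405 at LCR76 and 384 at LCR19, the second through the peak of ARF16. Oleosins and seed storage proteins had 1 of 12 (8.33%), CRU2 at 226.

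Genes that do not code for protein were counted in the same way. Every type with 79 or more genes had a share below 25.3%. The share was 24.4% for snoRNA genes (70 of 287), 21.0% for long noncoding RNA genes (730 of 3480) and 19.8% for tRNA genes (124 of 625). For microRNA genes it was 12.9% (42 of 326), for transcribed pseudogenes 10.6% and for other pseudogenes 2.37% (93 of 3917). Pseudogenes were thus the type with the fewest peaks for their number.

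Many of the highest noncoding scores came from peaks already described. The long noncoding RNA genes AT3G06755, AT5G09915 and AT5G01965 were counted through the peaks of ANAC060, LBD37 and NAC083. The tRNA gene AT4G08345 stood apart, with a peak of score 3100 (chromosome 4, 5267177 to 5268789) whose centre was 11205 bp from the nearest protein-coding gene. The tRNA genes AT3G63003 and AT3G63006 shared a peak of 1311 with GID1B, a gibberellin receptor gene. MIR822 (744) and MIR823 (744) had the highest microRNA scores after MIR5642b (1102), which lies in the peak of the ribosomal RNA gene AT2G01010. All 4 annotated ribosomal RNA genes had a peak, 2 of them outside the windows set aside.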

How the data were processed

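Chromatin of whole seedlings was precipitated with an anti-GFP antibody, per the labels' protocols, which also name sorbitol without making clear which samples received it. The submitters' processing notes name BWA 0.7.15-r1140 and the genome build TAIR10. MACS called the peaks without its local background model, per the file headers, and its version is not given in the sources. The deposited score is the authors' own value for each peak, and its meaning is not stated. Without the local model, regions of extra copies or accessible chromatin can be called.

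Printed positions are 1-based. Names and neighbours of genes were looked up in the RefSeq table of assembly TAIR10.1, of which no coordinate is printed. A peak was assigned to each gene whose 1 kb flank it touched by at least 1 bp, and a gene took its highest peak. Classes were defined by symbols and synonyms. Genes of other families seen to have the same name were left out, but others may remain. Family members with no matching name were not counted, so a class can be only part of its family. The assignment was tested on simulated data, where 100 of 100 planted flank peaks gave their gene. Python 3.11.15, numpy 2.4.6, pandas 2.3.3 and scipy 1.17.1 were used. Intervals are exact binomial at 95%.

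Genes were named by a rule: those nearest to the 25 highest and 5 widest peaks outside the windows set aside, up to 4 of the highest per class, 3 per noncoding type, ANAC060 and ABI5. The members and lists were chosen with earlier results of these data known. Members named beyond the first 4 or for having no peak, WRKY6 for its number of peaks, the peaks centred over 1 kb from a gene, LBD39, the counts by distance, gap and intergenic space, the direction counted for noncoding types, and the limits of 5 kb, 3 kb and scores of 500 and 1000 were chosen after their values were seen. Alternatives were flanks of 500 bp and 2 kb, gene bodies, centres only, scores above the median, merging of peaks within 200 bp and leaving out gene-poor windows. Scores of 200 or more, the nearest gene only, and leaving out chromosome 2 from 3 to 4 Mb or peaks of 5 kb or more were added after seeing the data.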

Additional observations from a re-analysis of the deposited data

How the results depend on the processing

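The number of genes with a peak depended on how a peak is assigned. It was 3898 with the centre within the flank, 3823 with peaks above the median score, 3310 at a score of 200 or more and 3622 with only the nearest gene, against 6940. Above the median score 2077 peaks covered 5.658 Mb. The share of centres in flanks was 40.87% with 500 bp, 58.19% with 2 kb and 54.12% above the median score, against 51.96%. The share in gene bodies was 33.8% above the median score and 34.07% at 200 or more, against 38.36%. The number of classes above the share of all genes was 33 to 47 of 60 over 11 alternatives, and the number of noncoding types below it 8 to 10 of 10. No paired analysis was possible because each group has 1 library, and no replicate could be left out. Promoter motifs were not run, since no sequence was used here. The list starts at a score of 100.01, so a gene without a listed peak may have a weaker one. Broad peaks count for several genes, and classes in tandem rows share peaks. Depth is unknown and limits the list in a way that cannot be read from it.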
